A study of Homo sapiens with 18 samples.

Results

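The genes described here are the 8 keratins of basal and stratified epithelium, KRT5, KRT14, KRT15, KRT6A, KRT6B, KRT6C, KRT16 and KRT17. They were chosen by name, as rows of the count tables whose gene symbol equals one of these names, and the rule uses no measured value. The 8 names were, however, proposed with earlier results of these data known. All 8 were found among 40916 gene symbols, beside 60 other keratin genes. The RNA came from MCF10A, an immortalised but non-transformed human mammary epithelial line carrying an H2B-GFP nuclear label, from HCT116, a human colorectal carcinoma line used here in an unlabelled p53-null form, and from a 50-50 mixed culture of both. Each kind of culture was either not irradiated (NIR) or given 10 Gy of ionising radiation (IR), which makes 6 groups of 3 libraries. The labels call the 3 libraries of a group biological replicates and name no batch. The sample titles place the harvest on day 2, while the series description gives 72 hours after irradiation. MCF10A was grown in F12:DMEM with horse serum, EGF, hydrocortisone, cholera toxin and insulin, and HCT116 in McCoy's 5A with fetal bovine serum, so line and medium cannot be told apart. The medium of the mixed cultures was not stated in the sources used here. How many clones each line represents was not stated either.

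Keratins are the intermediate filament proteins of epithelial cells. A filament is built from pairs of an acidic type I chain and a basic type II chain, and the pair in use changes with the kind of epithelium. KRT5 (type II) and KRT14 (type I) form the pair of the basal layer of stratified epithelia and of the basal cells of the mammary gland, where the inner, luminal cells use KRT8, KRT18 and KRT19. KRT15 is a further type I keratin of basal cells and of the hair follicle bulge. KRT6A, KRT6B and KRT6C (type II) pair with KRT16 and KRT17 (type I), are found in skin appendages, and are known for their induction in wounded or hyperproliferative epidermis. Intestinal epithelium, the origin of HCT116, is a simple epithelium in which KRT8, KRT18, KRT19 and KRT20 are the usual keratins.

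The 8 genes lie in the human keratin clusters, all on the minus strand (GRCh38, GENCODE v29). The type II members span 74.04 kb of chromosome 12 with no other keratin gene of the count tables between them. They run in the order KRT6B (52446651 to 52452126), KRT6C (52468516 to 52473785), KRT6A (52487174 to 52493257) and KRT5 (52514575 to 52520687). The type I members span 111.1 kb of chromosome 17, in the order KRT15 (41513743 to 41522529), KRT14 (41582279 to 41586921), KRT16 (41609778 to 41615899) and KRT17 (41619441 to 41624842). KRT9 and KRT19 lie within that span.

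The KRT6 genes are close copies of each other, which bears on every value given for them. Their coding sequences have 1692 bases each. KRT6A and KRT6B differed at 42 of these bases (97.52% identity), KRT6A and KRT6C at 35 (97.93%), and KRT6B and KRT6C at 25 (98.52%). The stretch of 90 coding bases in which the copies differed most, bases 656 to 745, is shown 5′ to 3′ with the 10 differing positions in capitals. Each such position sets either KRT6A or KRT6B apart from the other copies. KRT6C has no letter of its own here and differs only in the combination of letters.
KRT6A: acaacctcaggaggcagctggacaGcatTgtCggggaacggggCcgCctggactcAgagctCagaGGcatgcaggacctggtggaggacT
KRT6B: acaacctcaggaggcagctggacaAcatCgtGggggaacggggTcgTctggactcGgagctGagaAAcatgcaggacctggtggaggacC
KRT6C: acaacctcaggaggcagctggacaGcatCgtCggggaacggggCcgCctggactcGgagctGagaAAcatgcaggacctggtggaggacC
These letters come from the GENCODE v29 transcripts of GRCh38. The stretch lies within chromosome 12 from 52491532 to 52491621 for KRT6A, 52450416 to 52450505 for KRT6B and 52472076 to 52472165 for KRT6C. Of all windows of 150 bases in the KRT6A transcript, 9.255% occur unchanged in KRT6B or KRT6C. The share was 12.8% for KRT6B and 16.5% for KRT6C. It was under 1% for KRT14 (0.5948%) and KRT16 (0.7358%), and no window of KRT5, KRT15 or KRT17 occurred in another keratin. How reads that fit several copies were counted was not given in the sources used here, so KRT6B and KRT6C counts, which are low beside those of KRT6A, are uncertain. The 14 member pseudogenes in the tables drew few reads, at most 14 counts in a library.

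Library totals ran from 25.74 M to 40.84 M counts. Values are given as CPM, the counts of a gene per 1000000 counts of its library. Even numbers made up 68.4% of all values between 1 and 10, so mates of a read pair may have been counted one by one, and results were also computed with counts halved. Line markers other than keratins were checked against the labels. TP63, a basal transcription factor, stood at 109 CPM ± 5.65 (SD, n = 3) in MCF10A NIR and had no counts in HCT116 NIR, while CDX2, an intestinal transcription factor, had no counts in MCF10A and stood at 10.0 CPM ± 1.14 in HCT116 NIR. Only 3 of the 10 intestinal markers reached 1 CPM in HCT116 NIR, with CDX1, ASCL2, CEACAM5 and CEACAM6 at 0 and VIL1 near 0, and their summed level was 356 to 373 CPM there and 27.4 to 28.9 CPM in MCF10A NIR.

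In non-irradiated MCF10A the basal pair and KRT6A and KRT17 were abundant, and the other 4 keratins were scarce. KRT5 stood at 2962, 2957 and 2729 CPM in the 3 libraries, and was the gene with rank 14 of all by mean CPM. KRT14, its type I partner, stood at 509, 457 and 429 CPM. KRT6A had 1660, 1679 and 1549 CPM and rank 42, and KRT17 had 503, 500 and 440 CPM. The 3 libraries lay close together for each of these genes. Together the 8 genes took 0.549% ± 0.0273 of the counts of an MCF10A NIR library (SD, n = 3), of which KRT5 made up 52.6%, KRT6A 29.7%, KRT17 8.76% and KRT14 8.47%.

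The scarce keratins of MCF10A lay between 0.676 and 13.2 CPM in the NIR libraries. KRT16, a type I partner of KRT6, stood at 13.2, 11.6 and 9.53 CPM. KRT15 stood at 9.76, 7.83 and 8.64 CPM, and KRT6B at 7.29, 7.66 and 6.35 CPM. KRT6C was the lowest, at 0.676, 0.958 and 1.13 CPM.

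To compare levels between genes, CPM were divided by the coding length. On this scale of CPM per coding kb the order in MCF10A NIR was KRT5 (1629 ± 75.2, SD, n = 3), KRT6A (963 ± 41.6), KRT17 (371 ± 27.7), KRT14 (328 ± 29), KRT16 (8.07 ± 1.31), KRT15 (6.39 ± 0.709), KRT6B (4.20 ± 0.399) and KRT6C (0.544 ± 0.135). Neighbours overlapped in their library values for KRT17 and KRT14 and for KRT16 and KRT15, and did not overlap elsewhere in this order. KRT16 was thus far below KRT17, although both are type I partners of the KRT6 proteins. In MCF10A IR the order of the first 4 was the same, with KRT6A (1348 ± 32.6) closer to KRT5 (1573 ± 42.9) and KRT17 (706 ± 22.7) clear of KRT14 (337 ± 16.5). Below them KRT6B (19.0 ± 2.22) now overlapped KRT15 (15.5 ± 3.44), which overlapped KRT16 (14.1 ± 1.07), while KRT6C remained lowest (1.66 ± 0.300).

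**Figure D1:**
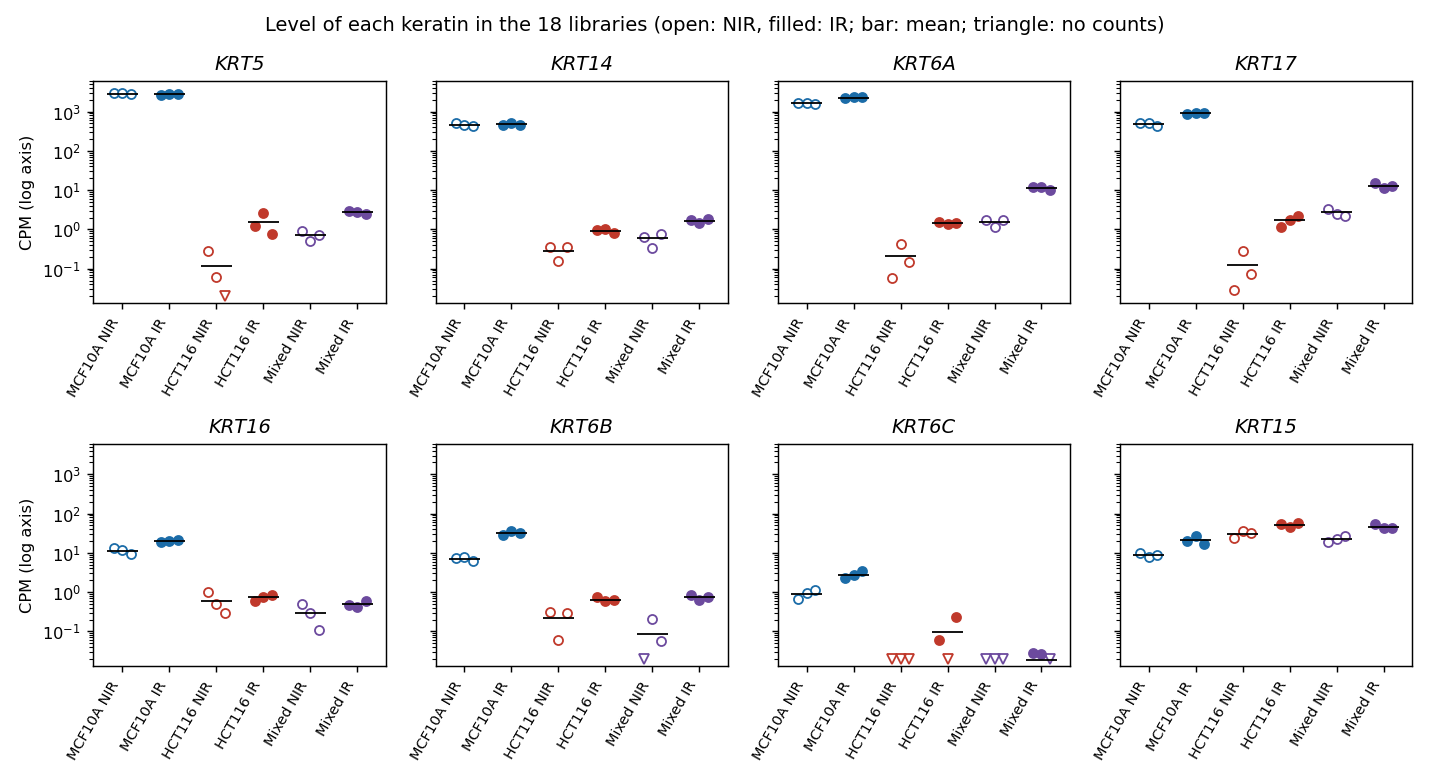
Level of each of the 8 keratins in the 18 libraries, as CPM on a log axis, with open circles for NIR, filled circles for IR, a bar for the group mean and a triangle for a library without counts. All keratins but KRT15 were highest in the MCF10A libraries, and KRT15 was lowest in MCF10A NIR, at 7.83 to 9.76 CPM.

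The first comparison asks how irradiation changed these keratins in MCF10A alone. KRT6A, KRT6B, KRT6C, KRT16, KRT17 and KRT15 rose, and the basal pair KRT5 and KRT14 did not pass the test. So 6 of 8 genes rose, where 26.2% of the 15154 genes tested did (edgeR's quasi-likelihood test, Benjamini-Hochberg adjusted p under 0.05). The median log2 fold change was 0.85 over the 8 genes and 0.003 over all genes tested. In each of the 6 genes that rose, every IR library lay above every NIR library. How many of all genes tested separated in this way is not given, here or in the comparisons below.

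KRT5 stood at 2703, 2854 and 2793 CPM in MCF10A IR, within the range of the NIR libraries but for the lowest value. Its log2 fold change was -0.07 (SE 0.0368, adjusted p = 0.099 by edgeR). KRT5 passed the threshold as lower without MCF10A NIR replicate 3 (-0.11, adjusted p = 0.014), without MCF10A IR replicate 2 (-0.10, adjusted p = 0.04) and without a filter on low counts (-0.09, adjusted p = 0.015), and its sign turned with upper quartile normalization (0.01). KRT14 stood at 461, 504 and 467 CPM, with a log2 fold change of 0.02 (SE 0.0494, adjusted p = 0.81 by edgeR), and the NIR and IR libraries overlapped. The ratio of KRT14 to KRT5 was 17.2%, 15.5% and 15.7% in the NIR libraries and 17.0%, 17.7% and 16.7% in the IR libraries, which also overlapped.

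The KRT6 genes rose by different amounts. KRT6A reached 2224, 2286 and 2334 CPM in MCF10A IR, a 1.38-fold rise (log2 0.46, SE 0.0371, adjusted p = 1.7e-11 by edgeR). KRT6B reached 28.3, 35.7 and 32.2 CPM, a 4.43-fold rise (log2 2.15, SE 0.11, adjusted p = 1.2e-15). KRT6C, at 2.35, 2.70 and 3.35 CPM, rose 3.01-fold (log2 1.59, SE 0.313, adjusted p = 8.8e-05). In CPM the gain of KRT6A was far larger than the whole level of KRT6B or KRT6C, and what share of their counts came from KRT6A transcripts was not tested.

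The type I partners also rose. KRT17, which marks basal mammary cells and wounded epidermis, stood at 881, 934 and 931 CPM in MCF10A IR, a 1.87-fold rise (log2 0.91, SE 0.0457, adjusted p = 9.3e-16 by edgeR). KRT16 stood at 18.4, 20.5 and 21.3 CPM, a 1.72-fold rise (log2 0.78, SE 0.114, adjusted p = 1.1e-06). KRT15 stood at 20.1, 26.3 and 17.1 CPM, a 2.38-fold rise (log2 1.25, SE 0.132, adjusted p = 4e-09). KRT15 varied most of these between the IR libraries, yet its lowest IR value was above its highest NIR value of 9.76 CPM.

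Ratios within a library do not depend on how libraries are scaled, and 3 of them were compared. KRT17 was 17.0%, 16.9% and 16.1% of KRT5 in the NIR libraries and 32.6%, 32.7% and 33.3% in the IR libraries (log2 difference 0.98). KRT6A was 56.0%, 56.8% and 56.7% of KRT5 and then 82.3%, 80.1% and 83.6% (log2 difference 0.54). Both ratios separated the groups, with an exact permutation p of 0.1 (2-sided, 0.15 after Benjamini-Hochberg adjustment over the 3 ratios), which is the smallest p that 3 against 3 libraries allow. For KRT14 over KRT5 the log2 difference was 0.09 (exact permutation p = 0.3, adjusted 0.3). Among the counts of the 8 genes, KRT5 went from 52.6% to 42.6% as a mean of the libraries, KRT6A from 29.7% to 34.9% and KRT17 from 8.76% to 14.0%, and the 8 genes together took 0.653% ± 0.0172 of a library.

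**Figure D2:**
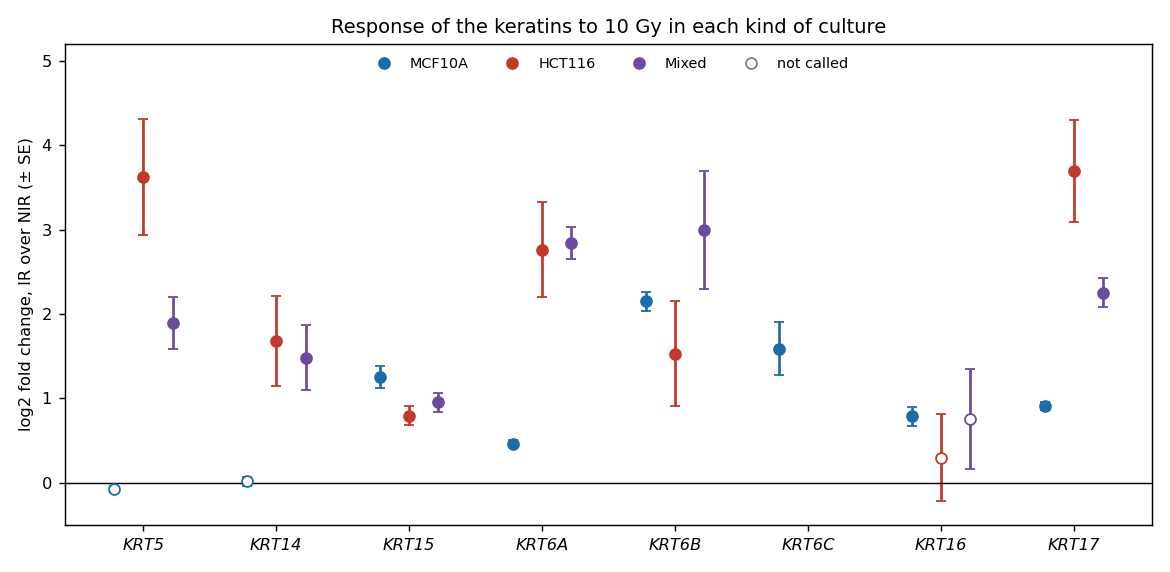
Log2 fold change of each keratin after 10 Gy, with its standard error, in MCF10A, HCT116 and mixed cultures, with open circles where the test was not passed. KRT5 and KRT14 sit at -0.07 and 0.02 in MCF10A and at 3.63 and 1.68 in HCT116, and KRT6C was tested in MCF10A alone.

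In HCT116 the stratified keratins were at trace level and KRT15 was the exception. KRT15 stood at 24.0, 35.3 and 31.6 CPM in HCT116 NIR, making up 94.9% ± 2.32 of the counts of the 8 genes. KRT5 had 10, 2 and 0 counts in the 3 libraries (0.117 CPM ± 0.152), KRT17 had 1, 9 and 2 counts (0.127 CPM ± 0.134), and KRT6A had 2, 14 and 4 counts (0.213 CPM ± 0.198). KRT14 (0.288 CPM ± 0.115), KRT6B (0.223 CPM ± 0.140) and KRT16 (0.590 CPM ± 0.356) were also under 1 CPM in every library. KRT6C had no counts in any HCT116 NIR library.

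Set against MCF10A without irradiation, 7 of 8 keratins were lower in HCT116 and KRT15 was higher, where 36.1% and 38.7% of the 16568 genes tested were lower and higher. The log2 difference, HCT116 minus MCF10A, was -14.62 for KRT5 (SE 0.167, adjusted p = 1.1e-20 by edgeR), -13.08 for KRT6A, -12.04 for KRT17 and -10.85 for KRT14. It was smaller for the scarce KRT6B (-5.17) and KRT16 (-4.43). KRT6C was at least 28.95-fold higher in MCF10A, from a floor of 3 counts over the 3 HCT116 libraries (at least 14.48-fold with counts halved). KRT15 was 3.02-fold higher in HCT116 (log2 1.59, SE 0.137, adjusted p = 7.6e-09), and the libraries of the lines did not overlap for any of the 8. The low counts of HCT116 NIR make these sizes depend on single libraries: without replicate 1 the KRT5 difference was -16.41.

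After irradiation the same 7 keratins were lower in HCT116 and KRT15 was higher, against 36.8% and 38.1% of 16932 genes tested. The log2 differences were -10.93 for KRT5, -10.85 for KRT6A, -9.32 for KRT17, -9.22 for KRT14, -5.86 for KRT6B, -5.24 for KRT6C and -5.01 for KRT16, each past the threshold by edgeR. Without HCT116 IR replicate 3 the KRT6C difference was -6.71. KRT15 was 2.11-fold higher in HCT116 (log2 1.08, SE 0.111, adjusted p = 2.6e-09).

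The next comparison asks how irradiation changed the 8 keratins in HCT116 alone. Of the 7 genes tested 6 rose, where 25.3% of 16857 genes tested did, and the median log2 fold change was 1.68 over these 7 and 0.007 over all. KRT6C failed the filter on low counts, and the other keratins passed it with few counts. KRT15 was the only one of them above 3 CPM. It rose 1.74-fold to 55.1, 45.8 and 56.0 CPM (log2 0.80, SE 0.109, adjusted p = 1.6e-06 by edgeR), and every IR library lay above every NIR library.

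The trace keratins of HCT116 rose by larger factors to levels that were still low. KRT5 had 41, 106 and 20 counts in the HCT116 IR libraries, or 1.25, 2.60 and 0.777 CPM (log2 3.63, SE 0.686, adjusted p = 0.0001 by edgeR). This value was 5.40 without HCT116 NIR replicate 1, which held 10 of the 12 NIR counts, and 3.01 without HCT116 IR replicate 2. KRT17 reached 1.16, 1.79 and 2.14 CPM (log2 3.70, SE 0.603, adjusted p = 1.7e-05) and KRT6A 1.52, 1.37 and 1.48 CPM (log2 2.76, SE 0.563, adjusted p = 0.00024). Without HCT116 NIR replicate 2, which held most of their NIR counts, these were 5.02 and 3.85. All 3 genes were above their NIR range in every IR library.

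KRT14, KRT6B and KRT16 had smaller fold changes in HCT116. KRT14 reached 0.944, 1.00 and 0.816 CPM (log2 1.68, SE 0.53, adjusted p = 0.01 by edgeR), but the adjusted p was 0.064 without HCT116 NIR replicate 2. KRT6B reached 0.731, 0.588 and 0.622 CPM (log2 1.53, SE 0.624, adjusted p = 0.044). It missed the threshold without a filter on low counts (adjusted p = 0.079) and without HCT116 NIR replicate 2 or 3 or any of the HCT116 IR libraries (adjusted p 0.063 to 0.19), and with counts halved it failed the filter and was not tested. KRT16 overlapped between NIR and IR libraries (log2 0.30, SE 0.516, adjusted p = 0.65). KRT6C had 2, 0 and 6 counts in HCT116 IR.

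Counts of other MCF10A genes in the HCT116 libraries are given beside these keratins. In 1 set of 106 genes with a mean of at least 20 CPM in MCF10A and under 1 CPM in every HCT116 library in both treatments, a set chosen after seeing the data that holds none of the 8 keratins, the mean CPM in HCT116 was higher after irradiation for 49 genes and lower for 35, and 22 had no counts. Their median was 0%, 0.00804% and 0% of the MCF10A level in the HCT116 NIR libraries and 0.0813%, 0.0332% and 0.103% in the IR libraries. The rule left out every gene that reached 1 CPM in an HCT116 library, KRT5, KRT14, KRT6A and KRT17 among them. The set therefore cannot show rises to that level. KRT5 was at 0.00406% ± 0.00528 and then 0.0553% ± 0.0339 of its MCF10A level (SD, n = 3), and KRT6A at 0.0131% ± 0.0121 and then 0.0639% ± 0.00341. KRT17 was at 0.0264% ± 0.0279 and 0.185% ± 0.0542, and KRT14 at 0.0620% ± 0.0248 and 0.193% ± 0.0201. Single markers differed. TP63 had no counts in HCT116 NIR and counts in replicate 2 alone of HCT116 IR, which is also the library with the most KRT5 counts. That library has the highest total of all, 40.84 M counts. In CPM, KRT5 (2.60) and KRT14 (1.00) were highest in it, KRT6A (1.52) in replicate 1 and KRT17 (2.14) in replicate 3. DCN, at 119 and 240 CPM in MCF10A, had no counts in any HCT116 library, and VIM, at 563 and 459 CPM in MCF10A, stood at 0.965 CPM in HCT116 NIR and 0.258 CPM in HCT116 IR. DSG3 stood at 0.0207 CPM in HCT116 NIR and 0.417 CPM in HCT116 IR, and BNC1 at 0 and 0.0896 CPM. The part of such counts in the rise of the keratins was not tested. Basal markers that HCT116 itself expresses, such as ITGB4 (477 CPM in HCT116 NIR) and CAV1 (286 CPM), dominate the basal mammary list there, and 8 of its 9 genes tested rose, against 25.3% of all genes.

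Whether the lines responded differently was tested on the difference of the responses, HCT116 minus MCF10A. On the log2 scale KRT5, KRT14, KRT6A and KRT17 rose more in HCT116, and KRT15 rose more in MCF10A, where 15.4% and 21.9% of 18179 genes tested were higher and lower. The first 4 started from 12 to 27 counts over the 3 HCT116 NIR libraries. In CPM, KRT6A and KRT17 gained far more in MCF10A (1629 to 2282 and 481 to 915) than in HCT116 (0.213 to 1.46 and 0.127 to 1.69). The log2 difference was 3.67 for KRT5 (SE 0.487, adjusted p = 1.3e-06 by edgeR), 2.70 for KRT17, 2.22 for KRT6A and 1.61 for KRT14. For KRT15 it was -0.53 (SE 0.197, adjusted p = 0.035), and this call was lost in 9 of 19 alternatives, among them that without MCF10A IR replicate 2 (-0.24, adjusted p = 0.36). KRT6B (-0.70, SE 0.455), KRT6C (2.73, SE 1.62) and KRT16 (-0.60, SE 0.371) did not pass the test.

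The mixed cultures carried little of the MCF10A keratins. KRT5 stood at 0.930, 0.519 and 0.723 CPM in Mixed NIR and at 2.86, 2.78 and 2.51 CPM in Mixed IR. KRT6A stood at 1.72, 1.15 and 1.78 CPM and then 12.1, 11.8 and 9.85 CPM, and KRT17 at 3.40, 2.48 and 2.25 CPM and then 15.3, 11.3 and 12.6 CPM. KRT14 went from 0.589 CPM ± 0.221 to 1.68 CPM ± 0.187. In bulk RNA, fewer MCF10A cells and less keratin RNA per MCF10A cell cannot be told apart. On the scale of CPM per coding kb the order in Mixed IR was KRT15 (33.4 ± 4.83), KRT17 (10.1 ± 1.60), KRT6A (6.66 ± 0.732), KRT5 (1.54 ± 0.104) and KRT14 (1.19 ± 0.132), with no overlap between KRT15, KRT17, KRT6A and KRT5, so the order of KRT5 and KRT17 was the opposite of that in MCF10A.

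After irradiation 6 of the 7 keratins tested were higher in the mixed cultures, where 24.0% of 16906 genes tested rose. The median over the MCF10A-specific genes of each treatment, defined below, was also higher. It was 0.428% of the MCF10A level in Mixed NIR and 1.21% in Mixed IR. A change in the share of MCF10A RNA and a response within cells cannot be told apart here. KRT6A rose 7.16-fold (log2 2.84, SE 0.186, adjusted p = 5.7e-11 by edgeR) and KRT17 4.77-fold (log2 2.25, SE 0.173, adjusted p = 6.7e-10). KRT5 rose by 1.89 on the log2 scale, KRT14 by 1.48 and KRT15 by 0.96, to 53.3, 41.7 and 42.0 CPM. KRT6B had 0, 7 and 2 counts in Mixed NIR and 30, 24 and 28 in Mixed IR (log2 2.99, SE 0.701, adjusted p = 0.0012, and 4.44 without Mixed NIR replicate 2). In these 6 genes every IR library lay above every NIR library. KRT16 did not pass the test (log2 0.75, adjusted p = 0.31), and KRT6C had no counts in Mixed NIR and 2 in Mixed IR.

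Mixed and HCT116 cultures were compared under the same treatment, and both comparisons share the HCT116 libraries with those of HCT116 above. Without irradiation KRT17 (log2 4.38, SE 0.508, adjusted p = 4.6e-05 by edgeR) and KRT6A (log2 2.86, SE 0.552, adjusted p = 0.0077) were higher in the mixture. These were 2 of 6 keratins tested, where 0.887% of 16455 genes tested were higher. KRT17 and KRT6A were also far higher in MCF10A NIR than in HCT116 NIR (log2 -12.04 and -13.08, HCT116 minus MCF10A). Any MCF10A RNA in a mixture therefore adds to both. The 0.887% is over all genes, and the share among genes with such a gap between the lines is not given. Without Mixed NIR replicate 1 KRT6A missed the threshold (adjusted p = 0.062), and without HCT116 NIR replicate 2 the KRT17 and KRT6A values were 5.71 and 3.95. KRT5 had a log2 difference of 2.52 (SE 0.727, adjusted p = 0.084) and passed with DESeq2 (2.59, adjusted p = 0.04), without a filter on low counts (2.54, adjusted p = 0.017), with the replicate number as a block (2.78, adjusted p = 0.023) and without HCT116 NIR replicate 1 (4.30, adjusted p = 0.029), while with counts halved it was not tested. KRT14 (1.04), KRT16 (-1.0) and KRT15 (-0.37) did not pass, and KRT15 passed as lower without a filter (adjusted p = 0.014), with the block (-0.38, adjusted p = 0.015) and without HCT116 NIR replicate 1 (-0.53, adjusted p = 0.041).

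After irradiation the same 2 keratins were higher in the mixture, of 7 tested, where 5.08% of 17137 genes tested were higher. This share too is over all genes and not over genes with a like gap between the lines. KRT17 was 7.72-fold higher (log2 2.95, SE 0.184, adjusted p = 6.9e-13 by edgeR) and KRT6A 7.70-fold (log2 2.94, SE 0.172, adjusted p = 1.8e-13), and no mixed library overlapped an HCT116 library. KRT5 (0.77, adjusted p = 0.14) and KRT14 (0.85, adjusted p = 0.14) did not pass, although KRT5 did without HCT116 IR replicate 2 (1.39, adjusted p = 0.0078). KRT15 (-0.20, adjusted p = 0.17) passed as lower without Mixed IR replicate 1 (-0.33, adjusted p = 0.011). KRT6B (0.21) and KRT16 (-0.54) did not pass either. The difference of the responses, Mixed minus HCT116, passed the edgeR threshold for 0 of 7 keratins, where 0.830% of 18072 genes tested passed, and DESeq2 also called 0. At an unadjusted p under 0.05 the count was 2, KRT5 (-1.72, SE 0.754) and KRT17 (-1.43, SE 0.526).

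In the mixtures the keratins stood at different fractions of their MCF10A level. As a percentage of the mean MCF10A level of the same treatment, KRT5 stood at 0.0323%, 0.0180% and 0.0251% in Mixed NIR, KRT6A at 0.105%, 0.0708% and 0.109%, KRT14 at 0.139%, 0.0744% and 0.167%, and KRT17 at 0.707%, 0.516% and 0.468%. Over the 144 MCF10A-specific genes of this treatment (a mean of at least 20 CPM in MCF10A and under 1 CPM in every HCT116 library) the median was 0.475%, 0.421% and 0.389% in these libraries, with quartiles of 0.196% and 0.987%. KRT17 was thus near the median, with 58.3% of the specific genes below it, and KRT5 near the bottom, with 7.64% below it. The limit of 1 CPM in HCT116 is a far smaller percentage of KRT5 than of a gene at 20 CPM. Ranks in this set and in that of Mixed IR below can therefore depend on the MCF10A level of a gene. In HCT116 NIR alone the same 144 genes had quartiles of 0% and 0.469% of the MCF10A level. What part of their values in the mixtures came from HCT116 RNA was not tested. In Mixed IR the specific genes had a median of 1.21% ± 0.0725, and KRT5 stood at 0.0976% ± 0.00659, KRT14 at 0.353% ± 0.0392, KRT6A at 0.494% ± 0.0543 and KRT17 at 1.43% ± 0.226. Here 7.69% of the 143 specific genes were below KRT5 and 56.6% below KRT17. KRT5, KRT14, KRT6A and KRT17 belonged to the specific genes of the NIR set and not to those of the IR set, since they passed 1 CPM in an HCT116 IR library. KRT6B (2.35% ± 0.329 in Mixed IR) and KRT16 (2.52% ± 0.459) had similar shares in HCT116 IR alone (2.02% and 3.66%), so these values do not separate MCF10A from HCT116 RNA. KRT5 (0.0553%) and KRT14 (0.193%) in HCT116 IR alone were also sizeable beside their Mixed IR values, which became 0.0423% and 0.160% with the HCT116 mean subtracted, and KRT14 in Mixed NIR became 0.0648%.

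**Figure D3:**
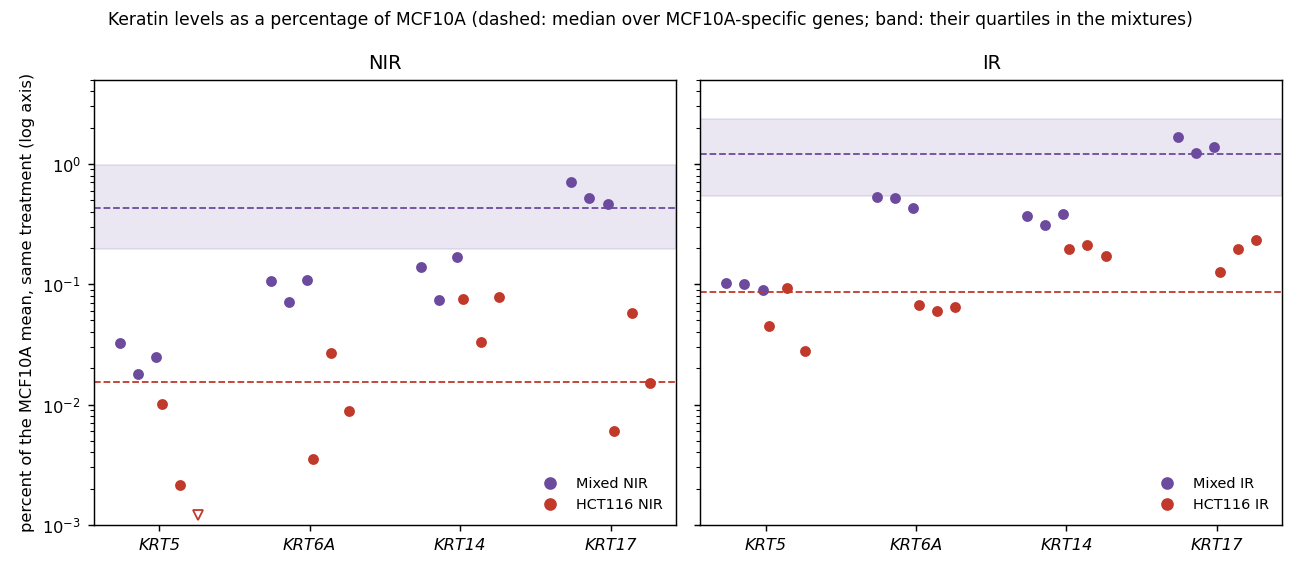
Levels of KRT5, KRT6A, KRT14 and KRT17 in each mixed and HCT116 library as a percentage of the MCF10A mean of the same treatment, on a log axis, with dashed lines for the median over MCF10A-specific genes in the mixed (purple) and HCT116 (red) libraries and a band for the quartiles in the mixtures. In the mixed libraries KRT17 lies within the band in both panels and KRT5 below it, and in the HCT116 libraries all 4 keratins lie below it.

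The other keratins give the setting of these changes. Of the 60 other keratin genes 12 could be tested in MCF10A, and 5 rose while 7 did not pass, with a median log2 fold change of 0.55 (0.003 over all genes tested, of which 26.2% rose). In MCF10A NIR the highest were KRT81, a hair keratin (2432 CPM), and KRT7, a simple-epithelium keratin (1460 CPM). After irradiation KRT7 rose to 1908 CPM (log2 0.36, adjusted p = 1e-09 by edgeR) and KRT8, the type II luminal keratin, from 145 to 240 CPM (log2 0.70, adjusted p = 5.1e-12). KRT18, its type I partner, did not pass (154 and 163 CPM, adjusted p = 0.37), nor did KRT81 (2379 CPM after irradiation, adjusted p = 0.22), KRT80 (log2 -0.08) or KRT10 (log2 0.02). KRT19 and KRT23 were under 1 CPM in MCF10A.

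In HCT116 14 of 20 other keratins tested rose and 6 did not pass, with a median log2 fold change of 1.64 (0.007 over all genes tested, of which 25.3% rose). KRT8 rose from 1448 to 4758 CPM (log2 1.72, adjusted p = 2.6e-17 by edgeR) and KRT18 from 393 to 1307 CPM (log2 1.74, adjusted p = 8.8e-17). KRT19 rose from 886 to 1549 CPM (log2 0.81). KRT80 (2.04), KRT81 (2.36), KRT23 (1.4) and KRT7 (1.66) also rose, and KRT10 did not pass (-0.14). In the mixed cultures 11 of 16 tested rose, with a median of 1.36 (0.012 over all genes tested, of which 24.0% rose). KRT8, KRT18 and KRT19, keratins of simple epithelium, were thus the abundant keratins that rose in HCT116, where KRT15 was the only one of the 8 stratified keratins above trace level.

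Genes that anchor keratin filaments or regulate keratin genes were followed in MCF10A, from lists of genes known for these roles. Among the 10 genes of hemidesmosomes and their basement membrane, which tie the KRT5 and KRT14 network to the matrix, all 10 rose, with a median log2 fold change of 1.02. LAMA3, a chain of laminin-332, rose from 1681 to 4639 CPM (log2 1.44, SE 0.0355). Of the desmosome genes, which join keratin filaments of neighbouring cells, 9 of 13 were tested, and 6 rose while 1 fell. JUP (plakoglobin, log2 0.88) and DSG3 (a desmosomal cadherin of basal cells, log2 0.73) rose, and PKP3 (plakophilin) fell (-0.19). Among all genes tested 26.2% rose and 29.2% fell.

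Of 20 transcription factors of stratified epithelium tested in MCF10A, 9 rose and 6 fell. Among all 15154 genes tested 26.2% rose and 29.2% fell, and each count of this paragraph is to be read beside these shares. EHF rose (log2 0.90), and TFAP2C fell (-0.36). TP63, which acts on the KRT5 and KRT14 genes, went from 109 to 131 CPM (log2 0.24, SE 0.0497, adjusted p = 0.00014 by edgeR). Of 12 keratin partners and filament regulators 6 rose and 5 fell. EPPK1 (epiplakin, log2 1.35) and TRADD (an adaptor that binds keratins, 0.57) rose, and PNN (pinin, -0.65) and TCHP (trichoplein, -0.56) fell. Basal mammary markers other than keratins rose in 9 of 11 cases. Among the 11, ITGA6, ITGB4, LAMB3, COL17A1, DSG3, DSC3 and TP63 also belong to the lists above, so this count partly repeats theirs. The summed level of the 11 went from between 7578 and 7807 CPM to between 11450 and 11840 CPM. Markers of other cells were few: of 6 luminal mammary markers 2 of 3 tested rose, with ELF5 and PIP at 0, and of 6 fibroblast markers 2 of 3 tested rose, with COL3A1 at 0 and DCN at 119 and 240 CPM. Their part in the keratin changes was not tested.

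**Figure D4:**
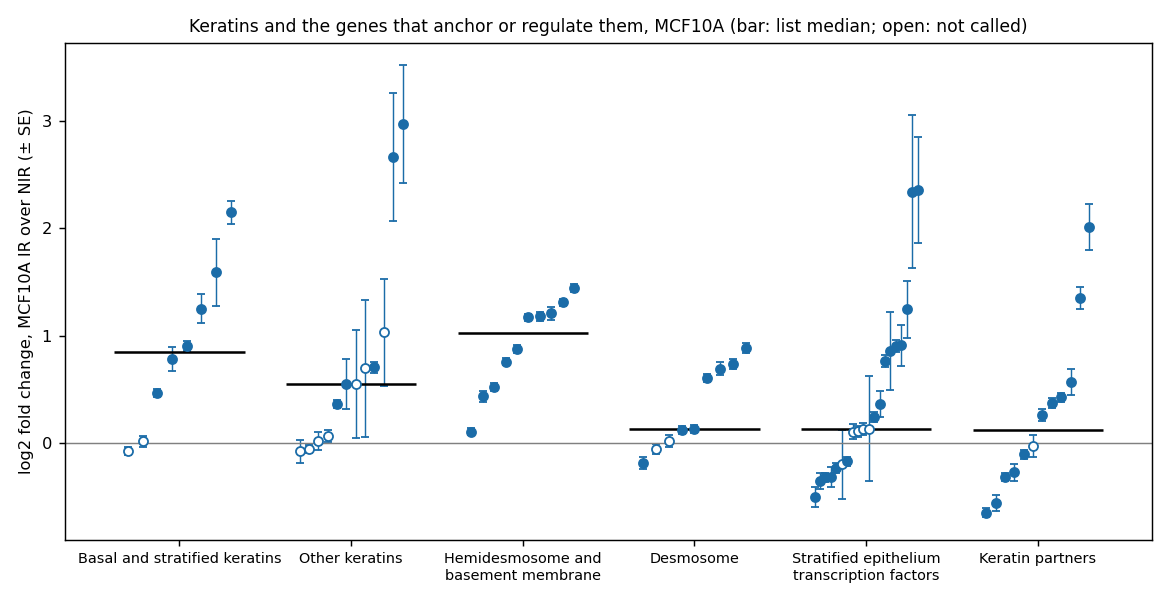
Log2 fold change in MCF10A after irradiation, with its standard error, for each tested gene of 6 lists, with a bar for the list median and open circles where the test was not passed. The hemidesmosome and basement membrane genes all lie above 0 with a median of 1.02, and the medians of the desmosome, transcription factor and keratin partner lists are 0.13, 0.13 and 0.12.

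Likeness to each keratin over the 18 libraries was described by Pearson's r of log2(CPM + 1) among 10914 genes with at least 10 CPM in a group. For the keratins other than KRT15 the 6 MCF10A libraries lie far above the other 12, and genes with the same gap have a high r whatever they do within a line. KRT5 and KRT14 were closest to each other (r = 0.999), followed for KRT5 by CTSC and FBN2 and for KRT14 by BNC1 and FBN2. KRT6A was most like KRT7 (r = 0.998), THBS1 and KYNU, and KRT17 most like DSG3 (r = 0.997), KRT7 and INHBA. KRT6B was most like NCSTN, SERPINB2 and MYH9, and KRT16 most like SLPI, ZNF790 and LRRK2. KRT15 stood apart from the rest, with r between -0.73 and -0.52 to the other 6 compared, and was most like MAVS (r = 0.98), SIDT2 and GPRC5A. The means of GPRC5A were 286 (NIR) and 617 CPM (IR) in MCF10A, and 816 and 1309 CPM in HCT116. KRT6C was below the level needed for this measure.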

How the data were processed

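Poly(A) RNA was sequenced from 18 libraries, paired-end, with the Illumina Stranded mRNA Prep per the labels' protocols. The authors deposited raw counts per gene symbol, 1 table per library, with fastp, STAR, featureCounts and GRCh38 listed per the submitters' processing notes. Versions, annotation, strand and pair settings are not given in the sources used here. The 8 keratins were taken by symbol, and the proposal of these 8 genes and the gene lists were made with earlier results of these data known. All genes past filterByExpr were fitted with edgeR 4.0.16 in R 4.3.3 (TMM, quasi-likelihood test, 2-sided, Benjamini-Hochberg over all genes tested, threshold 0.05), each pair of groups alone and the 4 groups of a response difference together. The standard error is the log2 fold change over the root of F. The scripts were tested on simulated counts. Percentages, ratios and CPM were computed from the counts with pandas 2.3.3, and exact permutation tests used SciPy 1.17.1. Named beside the 8 keratins were other keratins with at least 10 CPM in a group, up to 2 genes a direction per list by fold change in MCF10A (at least 10 CPM), markers of the lines, and the 3 genes most like each keratin. Some genes that this rule names are not reported here. Alternatives were other normalizations, DESeq2 1.42.0, no filter, counts halved, a replicate block and leaving out each library. Replicate numbers shared between groups were not taken to pair the libraries, and the labels do not say whether they do. Standard errors come from the edgeR fits and standard deviations from 3 libraries, so both include variation between libraries. Low values are given with their counts.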

Additional observations from a re-analysis of the deposited data

Results flagged for a closer look

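The response to irradiation differed between HCT116 and MCF10A for 5 of the 8 keratins by the test of the difference itself (edgeR, log2 response in HCT116 minus that in MCF10A, 6 libraries a line), where 15.4% of all genes tested were higher and 21.9% lower. The difference was 3.67 for KRT5, 1.61 for KRT14, 2.22 for KRT6A and 2.70 for KRT17, each from trace counts in HCT116 NIR, and -0.53 for KRT15, a call lost in 9 of 19 alternatives. Without HCT116 NIR replicate 1 the KRT5 value was 5.46, and without HCT116 NIR replicate 2 the KRT6A and KRT17 values were 3.31 and 4.02.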

How the results depend on the processing

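Depth limits what can be said of KRT5, KRT6A, KRT6B, KRT14, KRT16 and KRT17 in HCT116 NIR, which rest on 12 to 58 counts over 3 libraries. Of 943 recomputed log2 fold changes 900 kept direction and side of the threshold, 16 gained a call, 17 lost one and 10 changed sign. The count of keratins that passed between Mixed and HCT116 without irradiation went from 2 to 4 without a filter and to 4 with the replicate block, and lay between 1 and 4 when a library was left out. The genes added by the block were KRT5 and KRT15. After irradiation it went from 2 to 4 with the replicate block, where KRT5 (0.90, adjusted p = 0.024) and KRT15 (-0.21, adjusted p = 0.026) also passed, and lay between 2 and 3 when a library was left out. Counts halved left KRT6B in HCT116, KRT16 in the mixtures, and KRT5, KRT14 and KRT16 between Mixed and HCT116 NIR untested. With the replicate block KRT5 passed as lower in MCF10A (-0.07, adjusted p = 0.038), and the KRT15 response difference between the lines did not pass (-0.52, adjusted p = 0.061). Same-numbered libraries had residual correlations of -0.043 to 0.109, over 0.1 throughout in 0 of 15 group pairs, so the numbers were not taken to pair them. Changes of sign were KRT5 in MCF10A with upper quartile normalization (0.0125), KRT14 in MCF10A without NIR replicate 3 (-0.0407) or IR replicate 2 (-0.0327; up to 0.0843 over all libraries left out), and KRT16 in HCT116 without NIR replicate 3 (-0.01; up to 0.874). In the response difference, Mixed minus HCT116, KRT16 turned without HCT116 NIR replicate 1 (-0.146), KRT14 without HCT116 NIR replicate 2 (0.0885) or Mixed NIR replicate 3 (0.0551), and KRT6A without HCT116 NIR replicate 2 (-1.04), Mixed NIR replicate 2 (-0.113) or Mixed IR replicate 1 (-0.0007). Their ranges over the libraries left out reached 0.976 for KRT16, -0.487 for KRT14 and 0.554 for KRT6A. With the HCT116 mean subtracted, the percentages of MCF10A were 0.0648% for KRT14, -1.94% for KRT6B and -2.53% for KRT16 in Mixed NIR, and 0.0423% for KRT5, 0.160% for KRT14, 0.430% for KRT6A, 0.337% for KRT6B, -2.84% for KRT6C and -1.13% for KRT16 in Mixed IR. The cause of these changes was not tested.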
